A study of Mus musculus with 20 samples.

Results

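Expression of 10 genes of the Hippo pathway and of apical-basal polarity was followed from the oocyte to the blastocyst: Yap1, Wwtr1, Lats1, Lats2, Nf2, Amot, Mark2, Prkci, Pard3 and Pard6b. They were chosen by gene symbol, and all were among the 12394 genes annotated on the array. The array carried 28 probe sets annotated to exactly 1 of these symbols, of 22690 probe sets in all. Another probe set, annotated to both Xpo4 and Lats2, was not used. Mouse oocytes, 1-cell embryos, 2-cell embryos, 8-cell embryos and blastocysts were each measured on 4 MOE430A arrays, 20 in all. Their total RNA went through repeated rounds of in vitro transcription to give enough material for an array. The sources used here give no strain, age, mating, culture, number of embryos per array or separate collections, so p-values measure the spread between these samples only, which may be technical. The labels name no genotype or treatment that sets one group apart, and the groups differ by stage. Because whole embryos were used, fewer cells of a type and less RNA per cell cannot be told apart.

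In the Hippo pathway, upstream proteins such as the merlin protein encoded by Nf2 activate the kinases LATS1 and LATS2, which phosphorylate the coactivators YAP1 and TAZ (Wwtr1) and keep them out of the nucleus. Unphosphorylated YAP1 and TAZ bind TEAD transcription factors and switch on their target genes. Cell polarity feeds into this pathway in the preimplantation embryo: outer cells with an apical PAR3, PAR6 and atypical protein kinase C complex sequester angiomotin (Amot), YAP1 is nuclear and trophectoderm genes are on, whereas apolar inner cells have active LATS kinases. Much of this regulation acts on protein phosphorylation and location, which an expression array does not measure.

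The intensities are the authors' linear probe-set values, which share a common trimmed mean on every array, so each change is relative to the total signal of an array. A probe set was tested where at least 4 arrays read over 32.9, the 40th percentile of all intensities. That held for 17208 probe sets, among them 25 of the 28 for these genes, and the 3 left out all belonged to Lats2. A log2 change is the later stage minus the earlier one on the log2(intensity + 12.15) scale, which understates the change of dim probe sets. A probe set is called where its Benjamini-Hochberg adjusted p from limma was under 0.05 in that comparison. Probe sets of one gene can read different transcript ends and forms. Those with names ending in _s_at or _x_at may also read other genes, and those ending in _a_at may read several transcripts of one gene. Levels are therefore compared between stages within a probe set and not between probe sets.

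The arrays followed their stage labels. The oocyte growth factor gene Gdf9 averaged 7590 ± 709 (SD, n = 4) in oocytes and 9208 ± 1021 at the 1-cell stage, and read 55 to 80.1 in blastocysts. Gdf9 thus did not fall between the first stages, whereas Zp3 averaged 5489 ± 401 in oocytes and 1176 ± 203 at the 1-cell stage. Zfp352 was brightest at the 2-cell stage at 1994 ± 365, and the trophectoderm keratin gene Krt8 reached 4372 ± 290 in blastocysts. Arrays of one stage correlated at 0.931 to 0.971 over tested probe sets, and arrays of different stages at 0.436 to 0.899. The summed intensity of 8 cumulus and granulosa cell markers lay between 231 and 551 on all arrays, and that of 7 sperm markers between 76.0 and 248, of which at most 1 was over the filter intensity on all arrays of a stage. Of the cumulus and granulosa markers, 2 to 4 were over it on all arrays of a stage, led by Inha with stage means of 75.0 to 155, while Has2, Ptx3, Tnfaip6 and Amh had stage means of at most 27.3. The 6 oviduct and blood cell markers summed to 105 to 193 in oocytes, 1-cell embryos and blastocysts and to 296 to 846 at the 2-cell stage. In 8-cell embryos this sum was 125 to 3210, with the highest value on replicate 2, where the oviduct gene Ovgp1 alone read 3105.4. Ovgp1 read 219.6 to 764.6 on the 2-cell arrays. Without 8-cell replicate 2, the probe sets called numbered 11 from 2-cell to 8-cell (10 with it) and 13 from 8-cell to blastocyst (14 with it). For actin, the 3′ signal divided by the 5′ signal averaged 3.67 to 4.74 from oocyte to 8-cell and 1.99 in blastocysts, and the same quotient for Gapdh averaged 1.28 at the 8-cell stage and 4.70 to 5.81 at the others. The 18S ribosomal RNA probe set averaged 12665 at the 1-cell stage and 196 to 851 at the other stages. The part of these differences in the results was not tested.

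The 10 genes did not move as a block. From oocyte to 1-cell, both probe sets of Yap1 and of Pard6b and 2 of 3 of Mark2 rose as deposited, though none of these was called after the arrays were scaled to hybridization controls, while 2 of 3 probe sets of Wwtr1 and 1 of 3 of Amot fell. From 1-cell to 2-cell, all 3 tested probe sets of Wwtr1, 2 of 3 of Lats2, 1 of 3 of Amot and 1 of 4 of Nf2 rose. Both of Pard6b, 1 of 2 of Pard3 and 1 of 3 of Mark2 fell, and of the 2 for Yap1 1 rose and 1 fell. From 2-cell to 8-cell, 2 of 3 probe sets each of Lats2 and Wwtr1 and 1 of 3 of Amot rose, and both of Yap1, 2 of 3 of Mark2 and the single one of Lats1 fell. At the last transition, 1 of 2 probe sets each of Prkci, Pard3 and Pard6b rose, and 11 probe sets of Nf2, Amot, Lats2, Wwtr1, Yap1 and Mark2 fell as deposited, none of which was called after control scaling.

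In counts, 6 of the 25 probe sets were called higher and 3 lower from oocyte to 1-cell, where 16.0% and 15.3% of all tested probe sets were. From 1-cell to 2-cell, 8 were called higher and 5 lower, against 23.2% and 21.5% of all. From 2-cell to 8-cell, 5 were called in each direction, against 23.2% higher and 25.2% lower. From 8-cell to blastocyst, 3 were called higher and 11 lower, against 19.5% and 25.5%. Between oocyte and blastocyst, 7 were called in each direction, against 28.5% and 30.7%. The count farthest from its share was that of the 11 falls at the last transition. The median change of the 25 probe sets there was -0.56, and that of all tested probe sets was -0.21. At the other consecutive transitions the median of the 25 was 0.20, 0.01 and -0.03, and that of all was 0.11, -0.04 and 0.06.

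The direction of the small changes depended on how the arrays were scaled. Scaling to the 18 hybridization control probe sets, whose targets are added during processing, moved the median change of all tested probe sets by -0.83 from oocyte to 1-cell, 0.17 from 1-cell to 2-cell, -0.44 from 2-cell to 8-cell, 0.88 from 8-cell to blastocyst and -0.25 from oocyte to blastocyst. Of all calls, 51.1%, 51.9%, 48.0%, 43.4% and 48.1% were rises in these comparisons as deposited, and 0.630%, 65.7%, 21.6%, 95.6% and 38.3% after this scaling. The control cre itself averaged 6777, 12603, 11264, 18421 and 8312 from oocyte to blastocyst. Because the number of embryos per array is not given, changes after this scaling are not amounts of RNA per embryo. For the 25 probe sets the counts of higher and lower calls became 0 and 9, 7 and 4, 3 and 8, 9 and 0, and 7 and 8. Beside them, 7782, 5697, 6891, 8105 and 9621 of all 17208 tested probe sets were called after this scaling. Centring each array on its median moved the median of all by -0.11 from 1-cell to 2-cell and by 0.22 from 8-cell to blastocyst, where 63.0% of calls were then rises. It left 4 of the 25 called higher and 4 lower at the last transition, where 6638 of all tested probe sets were called. Quantile normalization moved that median by 0.12 and left 4 higher and 7 lower, where 7090 of all were called, 50.2% of them rises. A rise at the first transition, or a fall at the last, is thus a statement relative to the array's total signal. Control scaling moved falls at the first transition and rises at the last away from 0. Calls of those kinds that were kept after it are therefore no added support. The same holds to a lesser degree for falls from 2-cell to 8-cell, where the median moved by -0.44.

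**Figure D1:**
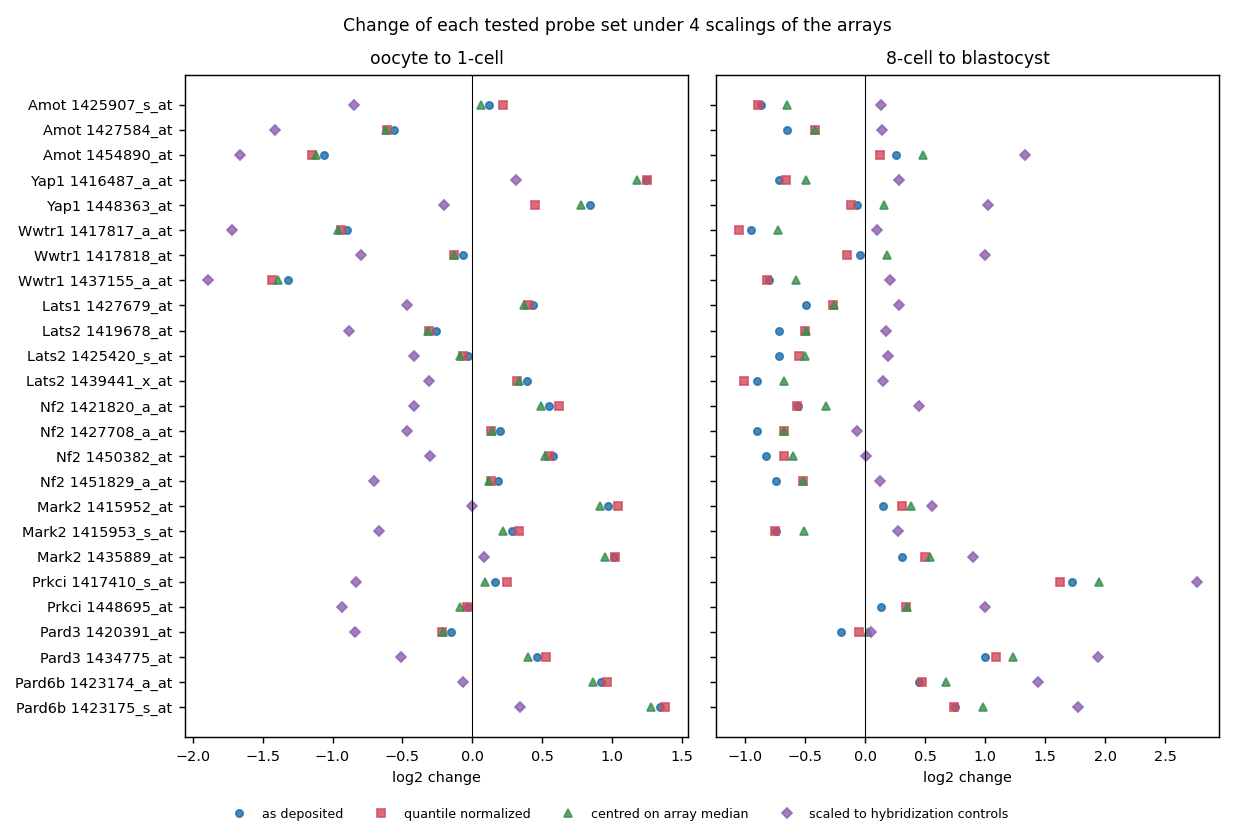
Log2 change of each of the 25 tested probe sets from oocyte to 1-cell (left) and from 8-cell to blastocyst (right), each on its own linear axis, with 1 symbol for each of 4 scalings. Scaling to the hybridization controls moves the points left at the first transition and right at the last, so that Yap1 1448363_at goes from 0.84 to -0.20 on the left and from -0.07 to 1.02 on the right; Prkci 1417410_s_at is above 0 on the right under all 4.

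**Figure D2:**
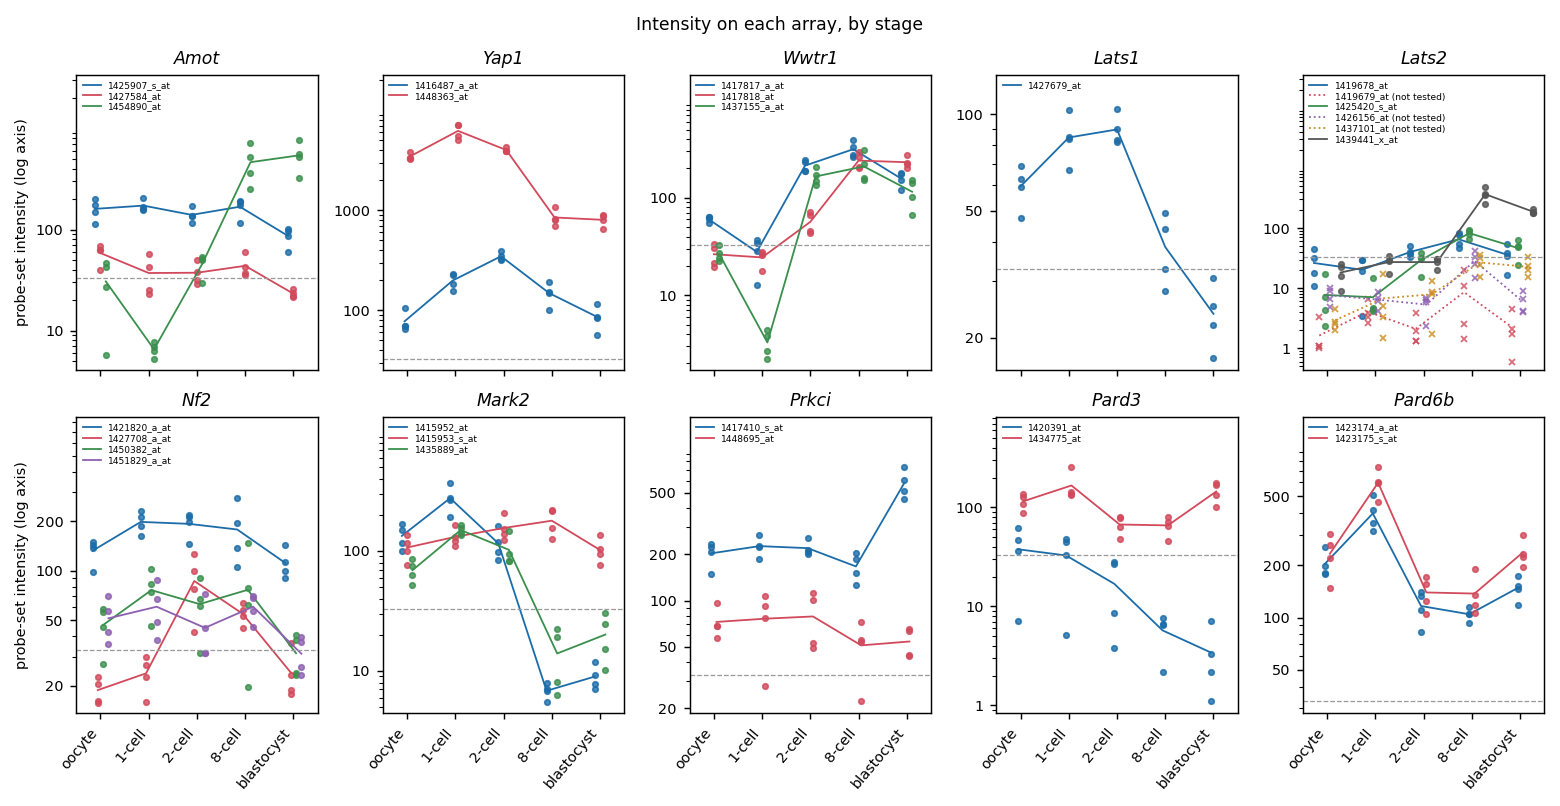
Intensity (log axis) on each array by stage for the 28 probe sets, 1 panel per gene; points are arrays, lines join the means of 4 arrays, crosses with dotted lines are the 3 Lats2 probe sets not tested, and the dashed line is the filter intensity of 32.9. Yap1 1448363_at stays between 644.9 and 7176.1, while Amot 1454890_at climbs from 5.2 to 768.9 and Mark2 1415952_at stays at or under 11.9 at the 8-cell and blastocyst stages.

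Yap1, the coactivator at the end of the pathway, was read by 2 probe sets with different courses. The brighter, 1448363_at, was high up to the 2-cell stage and low from the 8-cell stage on. It read 3311.6, 3289.3, 3817.9 and 3369.4 in the 4 oocyte samples and 7083.5, 7176.1, 5560.4 and 5071.1 at the 1-cell stage. It read 3908.1, 3904.9, 3937.9 and 4258.6 at the 2-cell stage, 1080.2, 826.9, 689.8 and 792.7 at the 8-cell stage, and 644.9, 872.5, 892.4 and 799.6 in blastocysts. The first 4 stages did not overlap one another, whereas 8-cell embryos and blastocysts did. The rise into the 1-cell stage was 0.84 ± 0.16 (SE; adjusted p = 0.000130), but it was -0.20 and not called after scaling to the hybridization controls. The change from 1-cell to 2-cell was -0.62 ± 0.16 (adjusted p = 0.00175), with calls lost after quantile normalization (-0.18) and after control scaling (-0.41). From 2-cell to 8-cell it fell by 2.24 ± 0.16 (adjusted p = 2.55e-12), a change called under each scaling, between -2.22 and -2.79. From 8-cell to blastocyst the change was -0.07 (adjusted p = 0.738), which became 0.16 after centring and a call of 1.02 after control scaling.

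The other Yap1 probe set, 1416487_a_at, peaked a stage later, at 346 ± 30.6 (SD, n = 4) in 2-cell embryos against 198 ± 35.2 at the 1-cell stage. The 2 probe sets correlated at 0.43 over the 20 arrays. They moved in opposite directions from 1-cell to 2-cell, where 1416487_a_at rose by 0.78 ± 0.21 (adjusted p = 0.00307). Into the 8-cell stage 1416487_a_at fell by 1.19 ± 0.21 (adjusted p = 2.78e-05), as the other did. Its further change into the blastocyst, -0.72 ± 0.21 (adjusted p = 0.00723), was not called after centring (-0.49) and turned to 0.28 after control scaling. Between oocyte and blastocyst 1448363_at fell by 2.09 ± 0.16 (adjusted p = 4.30e-12), and 1416487_a_at changed by 0.11 (adjusted p = 0.668).

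Wwtr1 encodes TAZ, the paralogue of YAP1. It fell into the 1-cell stage in 2 of 3 probe sets and rose into the 2-cell stage in all 3. Probe set 1417817_a_at read 63, 63.2, 55 and 59.9 in oocytes and 28.4, 34, 12.6 and 36.5 at the 1-cell stage. It then read 187.6, 190.6, 235.2 and 242.1 at the 2-cell stage, 331.4, 265.2, 274.4 and 390.1 at the 8-cell stage and 174.8, 177.7, 121.3 and 153.3 in blastocysts. Neighbouring stages did not overlap, and every 2-cell array was above every oocyte and 1-cell array. The change into the 1-cell stage was -0.90 ± 0.21 (adjusted p = 0.00115) and the rise into the 2-cell stage 2.54 ± 0.21 (adjusted p = 4.57e-11). Probe set 1437155_a_at gave -1.32 ± 0.24 (adjusted p = 8.91e-05) and 3.51 ± 0.24 (adjusted p = 1.50e-12) at the same steps. All of these were called with the same sign under each scaling. Control scaling moved the median change of all tested probe sets by -0.83 from oocyte to 1-cell, so it could not readily end the 2 falls. All oocyte and 1-cell arrays of 1437155_a_at lay under the filter intensity, so the size of its changes depends on the pseudocount.

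The third Wwtr1 probe set, 1417818_at, rose later, by 0.90 ± 0.21 (adjusted p = 0.000662) into the 2-cell stage and by 1.89 ± 0.21 (adjusted p = 1.24e-08) into the 8-cell stage. For 1417817_a_at the step from 2-cell to 8-cell was 0.53 ± 0.21 (adjusted p = 0.0359). That call was lost at 0.47 and 0.48 without 2-cell replicates 1 or 2, at 0.50 and 0.42 without 8-cell replicates 1 or 4, and at -0.01 after control scaling. From 8-cell to blastocyst, 1417817_a_at fell by 0.95 ± 0.21 (adjusted p = 0.000519), which turned to 0.10 after control scaling. The change of 1437155_a_at there, -0.80 ± 0.24 (adjusted p = 0.00864), was lost without blastocyst replicate 3 (-0.59), was lost after centring (-0.58) and turned to 0.21 after control scaling. All 3 probe sets were higher in blastocysts than in oocytes, by 1.21 ± 0.21, 1.67 ± 0.24 and 2.67 ± 0.21, and their correlations over the arrays were 0.76 to 0.97.

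The TEAD factors through which YAP1 and TAZ act bind the sequence GGAATG, and the RefSeq promoter table (build GRCm38.p6) held all 10 genes, with 15 start sites. In the 250 bases upstream of the start, GGAATG occurred on either strand in 12.6% of 32851 mouse promoters. That share counts promoters, of which a gene can have several. Among these genes it occurred upstream of Yap1, Wwtr1 and Prkci. These 3 are printed from 5′ to 3′ on the gene's strand, with the match in capitals. A match describes the letters in this window and is not evidence of binding.
Yap1, chr9:8004597-8004846, minus strand: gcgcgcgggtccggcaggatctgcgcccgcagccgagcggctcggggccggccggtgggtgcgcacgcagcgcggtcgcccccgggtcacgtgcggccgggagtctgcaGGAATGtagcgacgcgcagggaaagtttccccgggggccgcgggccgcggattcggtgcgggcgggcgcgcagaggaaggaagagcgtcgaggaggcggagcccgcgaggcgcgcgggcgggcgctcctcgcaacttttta
Wwtr1, chr3:57575911-57576160, minus strand: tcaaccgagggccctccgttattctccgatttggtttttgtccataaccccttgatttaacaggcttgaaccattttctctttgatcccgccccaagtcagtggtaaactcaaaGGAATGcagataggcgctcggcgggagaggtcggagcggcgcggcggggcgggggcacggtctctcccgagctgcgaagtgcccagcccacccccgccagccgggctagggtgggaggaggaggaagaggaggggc
Prkci, chr3:30995521-30995770, plus strand: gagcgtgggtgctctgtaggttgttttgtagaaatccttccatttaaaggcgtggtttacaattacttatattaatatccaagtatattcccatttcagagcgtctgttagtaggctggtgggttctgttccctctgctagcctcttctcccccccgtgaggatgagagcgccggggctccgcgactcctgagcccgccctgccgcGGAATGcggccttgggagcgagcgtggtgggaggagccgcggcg
The match lies 135 bases from the start site for Yap1, 130 for Wwtr1 and 38 for Prkci. The Yap1 window holds 44 CpG pairs, more than 99.5% of all promoters, and those of Wwtr1 and Prkci hold 18 and 17, against a median of 6. The second listed start site of Wwtr1 overlaps the one shown and contains the same match.

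Lats2, one of the 2 kinases that phosphorylate YAP1 and TAZ, was read by 3 tested probe sets, and 2 of them were called higher into the 2-cell stage already. The brightest, 1439441_x_at, rose into the 8-cell stage only. It read 25.5, 15.8, 22.6 and 8.9 in oocytes, 34.3, 28, 17.4 and 29.1 at the 1-cell stage and 27.7, 31.1, 19.7 and 30.1 at the 2-cell stage. It then read 255.8, 352.9, 372.4 and 488.4 at the 8-cell stage and 210.5, 184.9, 175.8 and 175.4 in blastocysts. The first 3 stages overlapped and lay mostly below the filter intensity, and every 8-cell and blastocyst array was above all of them. The rise into the 8-cell stage was 3.25 ± 0.22 (adjusted p = 2.04e-12), called under each scaling at 2.66 to 3.47. The change into the blastocyst was -0.90 ± 0.22 (adjusted p = 0.00203), which turned to 0.15 after control scaling.

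Probe set 1425420_s_at of Lats2 rose in steps, by 1.11 ± 0.28 (adjusted p = 0.00178) into the 2-cell stage and by 1.22 ± 0.28 (adjusted p = 0.000672) into the 8-cell stage. After control scaling the second step was 0.72 and not called. Its change into the blastocyst, -0.72 ± 0.28 (adjusted p = 0.0384), was lost without 8-cell replicates 1, 3 or 4 (-0.68, -0.74 and -0.67) or blastocyst replicates 1, 2 or 3 (-0.76, -0.76 and -0.51). It was also lost after centring (-0.50), quantile normalization (-0.55) or with the smaller pseudocount (-0.84), and turned to 0.19 after control scaling. For 1419678_at the 1-cell to 2-cell rise of 0.78 ± 0.32 (adjusted p = 0.0481) was lost under each scaling. It was also lost without 1-cell replicates 1 (0.46) or 3 (0.80) and without any of the 4 2-cell replicates (0.85, 0.81, 0.78 and 0.70). The 3 untested Lats2 probe sets read between 0.6 and 41.3, and each had its highest stage mean at the 8-cell stage, at 8.57, 26.8 and 28.4.

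Lats1, the paralogue of Lats2, declined into the 8-cell stage. Its single probe set, 1427679_at, read 68.8, 59.1, 62.8 and 47.4 in oocytes, 103, 67.2, 85 and 83.6 at the 1-cell stage and 89.9, 103.9, 82 and 83.2 at the 2-cell stage. It read 32.8, 49.1, 43.8 and 28.1 at the 8-cell stage and 25.1, 30.7, 21.9 and 17.3 in blastocysts. All 2-cell values lay above all 8-cell values, and blastocyst values overlapped the 8-cell ones. The change into the 8-cell stage was -1.02 ± 0.21 (adjusted p = 0.000153), called as a fall under each scaling. From 8-cell to blastocyst the change was -0.49 (adjusted p = 0.0563), and 0.28 after control scaling. Across the 20 arrays the log2 values of Lats1 1427679_at and Lats2 1439441_x_at correlated at -0.75, and those of Yap1 1448363_at and Lats1 at 0.88. These are descriptions over arrays of 5 stages that share their scaling.

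Nf2, which encodes the upstream activator merlin, gave 4 probe sets with different courses, correlated at -0.11 to 0.63 over the arrays. The brightest, 1421820_a_at, averaged 132 ± 22.6, 198 ± 29.5, 193 ± 33.1, 178 ± 74.6 and 111 ± 22.7 (SD, n = 4) from oocyte to blastocyst. Oocyte values (99 to 149.3) lay below all 1-cell values (162.3 to 230.6), and the other neighbouring stages overlapped. The change from oocyte to 1-cell was 0.55 ± 0.23 and not called (adjusted p = 0.0685). The change of -0.56 ± 0.23 into the blastocyst (adjusted p = 0.0463) was the only call. It was lost without 8-cell replicates 1 or 4 (-0.49 and -0.33) or blastocyst replicates 1, 2 or 4 (-0.57, -0.51 and -0.47), after centring (-0.33) or quantile normalization (-0.57), and it was 0.45 after control scaling.

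Probe set 1427708_a_at of Nf2 read 16.3, 20.6, 22.8 and 15.8 in oocytes, 22.6, 16, 26.8 and 30 at the 1-cell stage and 42.6, 77.9, 99.9 and 126.4 at the 2-cell stage. All 2-cell values were above all earlier ones. The rise was 1.39 ± 0.26 (adjusted p = 5.01e-05), called under each scaling. Into the blastocyst this probe set fell by 0.90 ± 0.26 (adjusted p = 0.00581), against -0.07 without a call after control scaling. Probe set 1451829_a_at gave -0.74 ± 0.26 there (adjusted p = 0.0221). That call was lost without 8-cell replicates 2 or 3 (-0.69 and -0.68) or blastocyst replicates 1 or 2 (-0.69 and -0.65), was lost after centring or quantile normalization (-0.52 each), and turned to 0.12 after control scaling. The fourth, 1450382_at, had no call, with -0.83 (adjusted p = 0.0544) at that step.

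Amot encodes angiomotin, the scaffold that links polarity to LATS activity. Probe set 1454890_at read 42.8, 5.8, 27.3 and 47 in oocytes, 6.9, 5.2, 6.3 and 7.7 at the 1-cell stage and 29.5, 49.9, 50.8 and 53.1 at the 2-cell stage. In 8-cell embryos it read 251.8, 362.3, 523.3 and 725.3, and in blastocysts 524.3, 560.4, 768.9 and 321.8. The 2-cell arrays were above all 1-cell arrays and below all 8-cell arrays, and the last 2 stages overlapped. The rises were 1.61 ± 0.32 (adjusted p = 0.000134) into the 2-cell stage and 2.96 ± 0.32 (adjusted p = 1.12e-08) into the 8-cell stage, both called under each scaling. All 1-cell arrays lay under the filter intensity. The change from oocyte to 1-cell was -1.06 ± 0.32 (adjusted p = 0.0117), with overlapping values. That call was lost without oocyte replicates 1 (-0.90) or 4 (-0.86) and with the larger pseudocount (-0.49).

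The other 2 probe sets of Amot did not follow this rise. Probe set 1425907_s_at averaged 161 ± 38.1, 173 ± 23.5, 140 ± 23.1, 169 ± 34.9 and 86.5 ± 19.1 from oocyte to blastocyst. Only its last step was called, a fall by 0.87 ± 0.21 (adjusted p = 0.00118) without overlap, which turned to 0.13 after control scaling. Probe set 1427584_at averaged between 23.2 and 58.6, with a last change of -0.65 ± 0.24 (adjusted p = 0.0328). That call was lost without 8-cell replicates 2 or 3 (-0.65 and -0.52) or blastocyst replicates 1 or 2 (-0.63 and -0.62), after centring or quantile normalization (-0.42 each), and it was 0.14 after control scaling. Between oocyte and blastocyst, 1454890_at rose by 3.77 ± 0.32 (adjusted p = 5.91e-11) while 1425907_s_at fell by 0.80 ± 0.21 (adjusted p = 0.00136) and 1427584_at fell by 0.98 ± 0.24 (adjusted p = 0.000997), each called with that sign under every scaling. Correlations among the 3 ranged from -0.54 to 0.60.

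Mark2 encodes PAR1b, the kinase that marks the basolateral side. Probe set 1415952_at read 167.7, 100.7, 148.4 and 117.3 in oocytes, 192.2, 276.3, 264.3 and 369 at the 1-cell stage and 97.6, 83.9, 119.6 and 161.7 at the 2-cell stage. It read 6.8, 7.9, 5.5 and 7.1 at the 8-cell stage and 7, 9.2, 11.9 and 7.8 in blastocysts. All arrays of the last 2 stages lay under the filter intensity and under all earlier arrays. The rise into the 1-cell stage was 0.97 ± 0.23 (adjusted p = 0.00134), against 0.00 after control scaling. The following changes were -1.17 ± 0.23 (adjusted p = 8.68e-05) and -2.72 ± 0.23 (adjusted p = 7.24e-11), both called under each scaling.

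Probe set 1435889_at of Mark2 ran with it, at a correlation of 0.95 for the closest pair of the gene. It rose by 1.01 ± 0.25 (adjusted p = 0.00270) into the 1-cell stage, against 0.08 after control scaling, and fell by 2.15 ± 0.25 (adjusted p = 4.54e-08) into the 8-cell stage, called under each scaling. The remaining Mark2 probe set, 1415953_s_at, did not show this fall: it averaged 107 ± 25.5, 131 ± 23.5, 155 ± 37.4, 179 ± 46.2 and 102 ± 24.7 from oocyte to blastocyst. Its only called step was the last, -0.74 ± 0.22 (adjusted p = 0.00837), with overlapping values. It was not called after centring (-0.51) and became 0.27 after control scaling.

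Prkci encodes the atypical protein kinase C iota of the apical complex. Probe set 1417410_s_at read 223.4, 231.3, 206.2 and 149.7 in oocytes, 227.3, 266.3, 222.2 and 187.2 at the 1-cell stage and 201.3, 253.9, 213.1 and 207.7 at the 2-cell stage. It read 125.9, 203.5, 186.9 and 150.2 at the 8-cell stage and 731.5, 517.7, 454.2 and 606 in blastocysts. The 4 earlier stages overlapped, and every blastocyst array was above all of them. The rise into the blastocyst was 1.72 ± 0.19 (adjusted p = 2.75e-08), at 1.62 to 2.76 and called under each scaling. Probe set 1448695_at gave 0.13 (adjusted p = 0.765) at that step, read 22.2 to 111.7 over the 20 arrays and had no call as deposited. After control scaling it was called at 3 steps, at -0.93, -0.95 and 1.00. The 2 probe sets correlated at -0.14.

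Pard3 encodes the scaffold PAR3. Probe set 1434775_at read 127.2, 109.4, 137.1 and 87.5 in oocytes, 253.5, 135.4, 142.7 and 134.8 at the 1-cell stage and 79.8, 77.6, 48.3 and 63.2 at the 2-cell stage. It read 80.9, 45.5, 71.8 and 65.1 at the 8-cell stage and 132.7, 169, 102.1 and 174.7 in blastocysts. The 2-cell and 8-cell arrays lay below all arrays of the other 3 stages. The change into the 2-cell stage was -1.14 ± 0.23 (adjusted p = 0.000144) and the rise into the blastocyst 1.00 ± 0.23 (adjusted p = 0.000897), both called under each scaling. Probe set 1420391_at, at 1.1 to 61.5, was called only between oocyte and blastocyst (-1.54 ± 0.40, adjusted p = 0.00147), where the values overlapped.

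Pard6b encodes PAR6B, the adaptor that ties the kinase to CDC42. Probe set 1423175_s_at read 302.8, 148.3, 219.3 and 262.7 in oocytes, 595.2, 732.5, 605.7 and 460.7 at the 1-cell stage and 125, 171, 105.4 and 156.5 at the 2-cell stage. It read 105.7, 134.4, 118.5 and 191 at the 8-cell stage and 223.4, 297.1, 195.3 and 232.2 in blastocysts. The 1-cell arrays were above all others, and the blastocyst arrays were above all 2-cell and 8-cell arrays. The rise into the 1-cell stage was 1.34 ± 0.22 (adjusted p = 1.92e-05), against 0.34 without a call after control scaling. The change into the 2-cell stage was -2.01 ± 0.22 (adjusted p = 9.59e-09) and the rise into the blastocyst 0.75 ± 0.22 (adjusted p = 0.00636), both called under each scaling.

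The other Pard6b probe set, 1423174_a_at, correlated with it at 0.92. It rose by 0.92 ± 0.19 (adjusted p = 0.000393) into the 1-cell stage, which became -0.07 after control scaling, and fell by 1.67 ± 0.19 (adjusted p = 2.62e-08) into the 2-cell stage. Its change into the blastocyst was 0.45 (adjusted p = 0.0558). Of the 3 members of the apical complex, 1 probe set each of Prkci, Pard3 and Pard6b was thus called higher from 8-cell to blastocyst under each scaling. These were the 3 rises among the 25 probe sets at that step as deposited. Control scaling moved the median change of all tested probe sets there by 0.88. It could therefore not readily end a rise, and the calls kept after it are no added support.

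**Figure D3:**
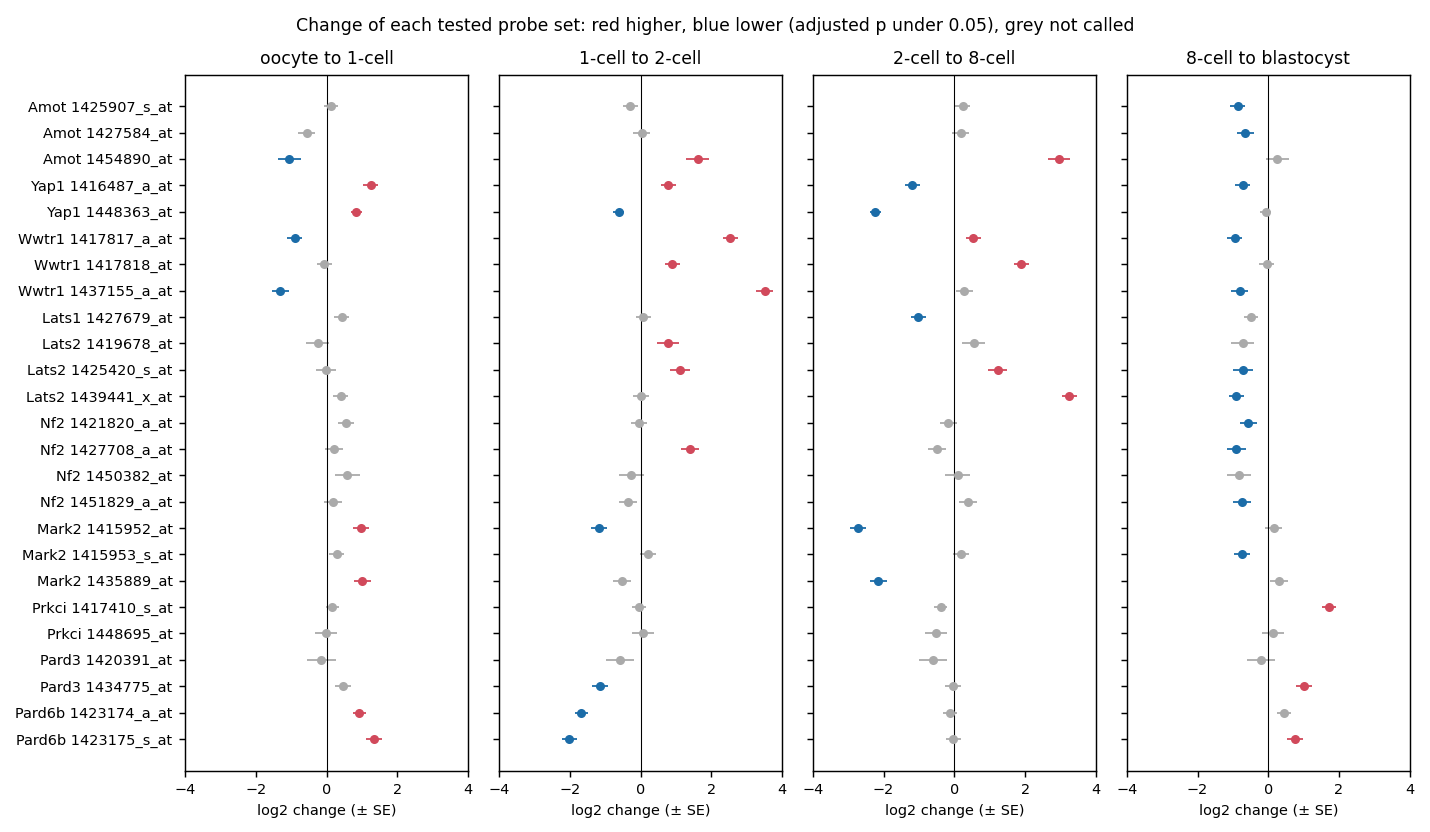
Log2 change with its SE for each of the 25 tested probe sets at the 4 consecutive transitions, on a shared linear axis; red marks a call higher, blue a call lower and grey no call. Lats2 1439441_x_at (3.25) and Amot 1454890_at (2.96) are farthest right and Mark2 1415952_at (-2.72) farthest left from 2-cell to 8-cell, and 3 red and 11 blue points are seen from 8-cell to blastocyst, of which all 11 blue ones lose their call or change sign after scaling to the hybridization controls.

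Other genes of these pathways were counted from 3 lists, each gene through its brightest tested probe set, over 10257 tested genes. A rise or fall given for a listed gene is therefore that of 1 probe set. Further probe sets of these genes were not examined, and probe sets of one gene can differ, as for Amot and Mark2 above. Of 25 listed Hippo kinases and upstream regulators, 18 were tested, with 7 called higher and 1 lower from oocyte to 1-cell, where 15.2% and 16.6% of all tested genes were. After control scaling these counts became 0 higher and 7 lower. From 1-cell to 2-cell, 4 were higher and 7 lower, against 22.0% and 22.7% of all genes. From 2-cell to 8-cell, 3 were called in each direction, against 22.2% higher and 25.7% lower. From 8-cell to blastocyst, 4 were higher and 5 lower, against 20% and 26.4%, and 10 and 0 after control scaling. The 2 middle transitions gave 4 and 5, then 2 and 5, after control scaling. The shares of all genes are those as deposited. After control scaling 7782, 5697, 6891 and 8105 of the 17208 tested probe sets were called at the 4 transitions. Of these calls 0.630%, 65.7%, 21.6% and 95.6% were rises. The median changes of the list were 0.29, -0.31, -0.01 and 0.01, and those of all tested genes 0.09, -0.07, 0.04 and -0.22.

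Within this list, the LATS cofactor gene Mob1a rose from 64.3 ± 16.6 to 520 ± 117 (2.80 ± 0.19, adjusted p = 1.48e-12) and Ajuba, a LIM protein gene, from 10.1 ± 1.14 to 145 ± 24.0 (2.81 ± 0.20, adjusted p = 3.54e-12) into the 2-cell stage. Rassf1 fell there from 248 ± 133 to 23.6 ± 5.33 (-2.73 ± 0.31, adjusted p = 3.36e-08). Into the 8-cell stage the angiomotin-like gene Amotl2 rose from 12.7 ± 3.07 to 196 ± 35.7 (3.06 ± 0.23, adjusted p = 1.10e-11), Mob1b rose by 2.05 ± 0.25 (adjusted p = 1.16e-07), and Wwc2, a relative of the scaffold KIBRA, fell from 1801 ± 90.9 to 330 ± 59.7 (-2.42 ± 0.15, adjusted p = 1.83e-13). These were called with the same sign under quantile normalization and control scaling. The TAO kinase gene Taok3 rose from 496 ± 40.2 to 1436 ± 342 at the 1-cell stage (1.48 ± 0.23, adjusted p = 1.22e-05), but by 0.46 without a call after control scaling. Limd1 rose there by 1.24 ± 0.20 (adjusted p = 2.11e-05), against 0.24 without a call after control scaling, and Ajuba fell by 0.89 ± 0.20 (adjusted p = 0.00103), called under both scalings. Taok3 then changed by -2.87 ± 0.23 (adjusted p = 4.10e-11) and -1.99 ± 0.23 (adjusted p = 4.01e-08) at the next steps, called under both scalings. Into the blastocyst Wwc1, which encodes KIBRA, rose by 1.27 ± 0.29 (adjusted p = 0.000987) and Limd1 by 1.23 ± 0.20 (adjusted p = 1.67e-05), under both scalings too. Control scaling could not readily end these rises or the fall of Ajuba, so their calls kept after it are no added support. Mob1b fell by 1.46 ± 0.25 (adjusted p = 3.85e-05) and the TAO kinase gene Taok1 fell by 1.24 ± 0.18 (adjusted p = 4.62e-06), but neither was called after control scaling (-0.48 and -0.18).

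Of 18 listed TEAD factors, cofactors and target genes, 13 were tested. From oocyte to 1-cell 1 was called higher and 0 lower, and 0 and 2 after control scaling, where 15.2% and 16.6% of all tested genes were called as deposited. From 1-cell to 2-cell 4 were higher and 2 lower, against 22.0% and 22.7% of all, and 4 and 1 after control scaling. At the third transition 4 were higher and 1 lower, against 22.2% and 25.7% as deposited, and 4 and 1 after control scaling. After that scaling 6891 of the 17208 tested probe sets were called there, 21.6% of them rises. At the fourth 4 were higher and 1 lower, against 20% and 26.4% as deposited, and 8 and 1 after control scaling. After that scaling 8105 of all tested probe sets were called there, 95.6% of them rises. Their median changes were 0.30, 0.18, 0.26 and 0.02, and those of all tested genes were 0.09, -0.07, 0.04 and -0.22. Tead4, the TEAD factor of trophectoderm formation, rose from 9.93 ± 4.90 to 118 ± 33.7 into the 2-cell stage (2.54 ± 0.24, adjusted p = 1.01e-09), as Wwtr1 did. The target gene Myc rose there too (1.82 ± 0.27, adjusted p = 2.40e-06), and Gata3, a trophectoderm factor gene, fell from 138 to 14.8 (-2.60 ± 0.33, adjusted p = 2.08e-07). Into the 8-cell stage the target genes Cdx2 (2.29 ± 0.33, adjusted p = 1.51e-06) and Ccn2 (2.11 ± 0.28, adjusted p = 3.45e-07) rose, and the target gene Birc5 fell from 1353 ± 296 to 555 ± 37.0 (-1.25 ± 0.18, adjusted p = 1.16e-06). Into the blastocyst Gata3 rose from 13.5 ± 15.7 to 232 ± 60.8 (3.38 ± 0.33, adjusted p = 5.32e-09) and Sox2, an inner cell mass factor gene, from 50.4 ± 14.6 to 232 ± 25.5 (1.99 ± 0.23, adjusted p = 7.23e-08), and Tead4 fell by 1.87 ± 0.24 (adjusted p = 5.58e-07). These were called with the same sign under quantile normalization and control scaling. For the rises of Gata3 and Sox2 into the blastocyst, the calls kept after control scaling are no added support, because it could not readily end them. Gata3 also rose from oocyte to 1-cell (1.23 ± 0.33, adjusted p = 0.00516), against 0.34 without a call after control scaling.

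Of 33 listed polarity genes, 30 were tested, with 10 called higher and 1 lower from oocyte to 1-cell, against 15.2% and 16.6% of all tested genes, and the counts became 0 and 12 after control scaling. From 1-cell to 2-cell 7 were higher and 10 lower, against 22.0% and 22.7%, and 6 and 4 after control scaling. From 2-cell to 8-cell 7 were higher and 9 lower, against 22.2% and 25.7%, and 1 and 14 after control scaling. Into the blastocyst 5 were higher and 8 lower, against 20% and 26.4%, and 15 and 1 after control scaling. The shares are as deposited. After control scaling 8105 of the 17208 tested probe sets were called there, 95.6% of them rises. From oocyte to 1-cell 7782 were called, 0.630% of them rises, and from 2-cell to 8-cell 6891, 21.6% of them rises. The median changes were 0.30, -0.28, -0.17 and -0.19, beside the medians of all tested genes given above. Pard6a, a paralogue of Pard6b, fell from 296 ± 19.6 to 135 ± 35.6 at the 1-cell stage (-1.10 ± 0.22, adjusted p = 0.000287), where Pard6b rose as deposited but not after control scaling. Rock1, an effector kinase gene of RHOA, rose there by 1.02 ± 0.20 (adjusted p = 0.000180) and Pard6g, another paralogue, by 0.97 ± 0.23 (adjusted p = 0.00129), with no call after control scaling (-0.01 and -0.04). Into the 2-cell stage the PAR1 kinase gene Mark3 rose by 3.26 ± 0.27 (adjusted p = 7.89e-11), while Tiam1, an exchange factor gene for RAC, fell by 1.84 ± 0.26 (adjusted p = 9.89e-07) and Llgl1, a basolateral scaffold gene, fell by 1.75 ± 0.19 (adjusted p = 8.20e-09). The small GTPase genes Rhoa (2.34 ± 0.18 into the 2-cell stage, adjusted p = 1.46e-11) and Cdc42 (1.32 ± 0.18 into the 8-cell stage, adjusted p = 9.06e-07) rose. Rock1 fell by 2.49 ± 0.20 (adjusted p = 2.78e-11) and Tiam1 fell by 2.47 ± 0.26 (adjusted p = 6.04e-09) into the 8-cell stage, and Dlg3 rose by 1.18 ± 0.25 (adjusted p = 0.000231). Into the blastocyst the Crumbs complex gene Patj rose from 32.5 to 136 (1.78 ± 0.24, adjusted p = 1.35e-06) together with Dlg1 (1.28 ± 0.19, adjusted p = 3.72e-06), and Cab39, which activates the polarity kinase LKB1, fell by 2.10 ± 0.20 (adjusted p = 4.12e-09). The PAR3 paralogue gene Pard3b fell by 1.51 ± 0.36 (adjusted p = 0.00145). After control scaling Dlg3 (0.67) and Pard3b (-0.76) were not called. Apart from these and from the rises of Pard6b, Rock1 and Pard6g at the 1-cell stage, the changes named here were called with the same sign under quantile normalization and control scaling. Control scaling could not readily end the fall of Pard6a or the rises of Patj and Dlg1, so their calls kept after it are no added support.

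**Figure D4:**
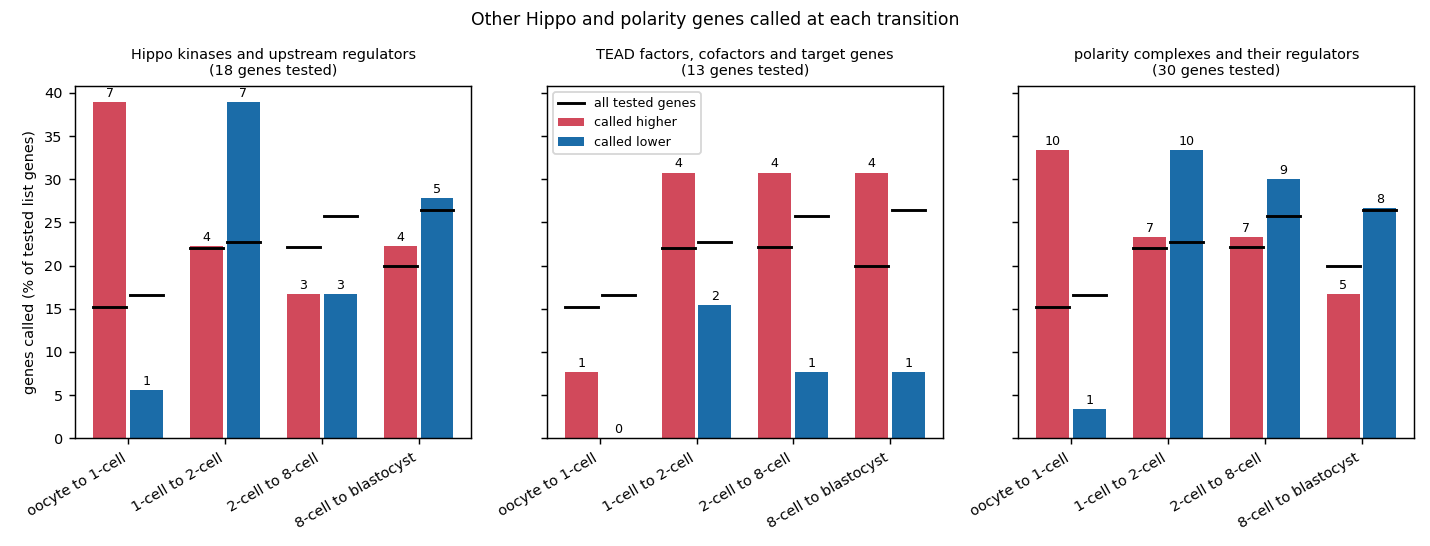
Percent of the tested genes of each list called higher (red) or lower (blue) at each transition, on a linear axis from 0, with the number of genes above each bar and the share of all 10257 tested genes as a black line. From oocyte to 1-cell 7 of 18 Hippo regulators and 10 of 30 polarity genes are called higher. None of either list is after scaling to the hybridization controls, where 0.630% of the calls among all tested probe sets are rises.

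The genes whose course was most like that of a member were found by the highest Pearson correlation of log2 values over the 20 arrays, as a description over arrays that share stages. For Yap1 1448363_at these were Prkg1 (0.991) and Phc2 (0.988), for Wwtr1 1417817_a_at Rnf7 (0.979) and Tomm20 (0.976), and for Lats2 1439441_x_at Cpeb2 (0.989) and Lasp1 (0.986). Those for Prkci 1417410_s_at were Slc9a3r1 (0.943) and Capn2 (0.937), and those for Lats1 1427679_at were Tnrc6b (0.964) and Strn (0.960). Pard3 1434775_at was closest to Myl12a (0.898) and Pard6b 1423175_s_at to Pcbp2 (0.917). Nf2 1421820_a_at was closest to Ints13 (0.831), Mark2 1415953_s_at to Sprr1a (0.860) and Amot 1425907_s_at to Fibp (0.918).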

How the data were processed

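Expression was measured on 20 arrays, grouped by the stage in each title. The deposited values are a linear intensity per probe set, scaled by the authors to a common trimmed mean; the software behind them is not given in the sources used here. Gene names came from GEO's platform annotation. Of 22690 probe sets, 64 controls were left out. Those above 32.9 on at least 4 arrays were tested as log2(intensity + 12.15) without further normalization, in 1 model of 5 stages with limma 3.58.1 in R 4.3.3 (lmFit and eBayes with trend = TRUE, a two-sided moderated test on 15 residual degrees of freedom). P-values were adjusted by Benjamini-Hochberg over 17208 probe sets within each of 5 comparisons. Errors are SEs of log2 changes or SDs over 4 arrays. The procedure was tested on simulated data. The number of arrays limits the precision.

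The genes and lists were chosen with earlier results of these data known. The brightest tested probe set by mean log2 value stood for a gene in lists and correlations. From each list up to 2 risen and 2 fallen genes per transition were named by size of change without overlap. The alternatives were other scalings, pseudocounts of 3.04 and 48.6, no filter or one at 71.8 (the 60th percentile), the compared stages alone, no trend, a replicate block, the mean over a gene's probe sets, and leaving out each replicate.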

Additional observations from a re-analysis of the deposited data

Results flagged for a closer look

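In 6 of the 125 groups of 4 arrays examined, 1 array lay apart by Dixon's criterion, its gap to the nearest array over the group's range being above the 95% critical value, which chance alone gives in about 1 of 20 groups. Amot 1454890_at read 29.5 on 2-cell replicate 1 and 49.9 to 53.1 on the others (0.888). Yap1 stood apart on oocyte replicate 3 with both probe sets: 1416487_a_at read 105.8 against 64.6 to 70.3 (0.833), and 1448363_at read 3817.9 against 3289.3 to 3369.4 (0.839). Yap1 1448363_at also read 4258.6 on 2-cell replicate 4 against 3904.9 to 3937.9 (0.903). Lats2 1425420_s_at read 14.9 on 1-cell replicate 3 against 4.1 to 4.7 (0.929), all under the filter intensity. Pard3 1434775_at read 253.5 on 1-cell replicate 1 against 134.8 to 142.7 (0.912).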

How the results depend on the processing

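Most of the 60 called changes were kept under most alternatives: 58 with either pseudocount, with no filter, with the compared stages alone, and 59 without the trend, and 49 of 49 with the stricter filter. Centring kept 52 and quantile normalization 54. Scaling to the hybridization controls kept 39, ended 8 and turned 13. The mean over a gene's probe sets was set beside the 25 calls of the brightest probe sets. It kept 20, ended 3 and turned 2, the falls of Yap1 from 1-cell to 2-cell and of Amot between oocyte and blastocyst. Called probe sets from 8-cell to blastocyst numbered 8 after centring and 9 after control scaling, against 14. Leaving out 1 array kept 448 of 480 calls, and the counts ran from 8 to 10, 12 to 14, 9 to 11 and 11 to 14 at the consecutive transitions and from 14 to 15 between oocyte and blastocyst.

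Same-numbered arrays of different stages had residual correlations of -0.16 to 0.18, over 0.1 in 6 of 40 pairs. Differently numbered arrays were not set beside them, so these values do not settle whether the numbers pair the samples. With the replicate number as a block, 9, 13, 10, 13 and 14 probe sets were called, and 2 calls were lost from 8-cell to blastocyst, Nf2 1421820_a_at (-0.56, adjusted p = 0.0528) and Lats2 1425420_s_at (-0.72, adjusted p = 0.0510).

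Signs were followed for the brightest probe set of each gene and for every called change. After control scaling the sign turned from oocyte to 1-cell for Mark2 1415953_s_at (-0.67), Prkci (-0.83), Nf2 (-0.42), Pard6b 1423174_a_at (-0.07), Amot (-0.85), Lats1 (-0.47), Pard3 (-0.51), Lats2 (-0.31) and Yap1 (-0.20). From 1-cell to 2-cell it turned for Prkci and Nf2 (0.16 each), and from 2-cell to 8-cell for Mark2 (-0.34), Wwtr1 (-0.01) and Amot (-0.28). From 8-cell to blastocyst it turned for Mark2 (0.27), Yap1 1416487_a_at (0.28) and 1448363_at (1.02), Wwtr1 (0.10 and 0.21), Nf2 (0.45 and 0.12), Lats2 (0.19 and 0.15), Amot (0.13 and 0.14) and Lats1 (0.28), and between oocyte and blastocyst for Pard6b (-0.22). With the mean over a gene's probe sets it turned for Amot (-0.50), then Mark2 (-0.50), Prkci (0.02), Nf2 (0.18), Amot (0.46) and Yap1 (0.08), then Mark2 (-1.56) at the first 3 transitions, and for Pard6b (-0.19), Amot (0.66) and Pard3 (-0.62) between oocyte and blastocyst. With quantile normalization it turned for Lats1 (-0.04) and Lats2 (-0.12) from 1-cell to 2-cell and for Pard6b (0.04) and Pard3 (0.01) from 2-cell to 8-cell. Centring turned Lats1 (-0.03), Lats2 (-0.10), Yap1 from 8-cell to blastocyst (0.16) and Mark2 between oocyte and blastocyst (0.01). Over all 25 probe sets control scaling turned 12, 2, 7 and 16 signs at the consecutive transitions and 2 between oocyte and blastocyst, and of these 2 at the first and 2 at the last transition were then called, among them Wwtr1 1417818_at at 1.00. The cause was not tested.

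Leaving out 1 array turned uncalled changes near 0 only, with ranges of -0.03 to 0.23 for Amot from oocyte to 1-cell, -0.01 to 0.17 for Lats1, -0.12 to 0.10 for Lats2, -0.13 to 0.08 for Nf2 and -0.12 to 0.04 for Prkci from 1-cell to 2-cell, -0.40 to 0.03 for Nf2, -0.15 to 0.11 for Pard3 and -0.19 to 0.07 for Pard6b from 2-cell to 8-cell, -0.16 to 0.05 for Yap1 from 8-cell to blastocyst, and -0.20 to 0.06 for Mark2 and -0.14 to 0.18 for Pard6b between oocyte and blastocyst. Probe sets near the filter intensity, such as most of Lats2, limit what can be seen.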
